A study of Mus musculus with 6 samples.

Results

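Fos, Fosb, Fosl1, Fosl2, Jun, Junb, Jund, Atf3, Maff and Egr1 encode transcription factors grouped here under the immediate early response. In that response genes are switched on within a short time of a stimulus and without new protein synthesis. Not every member need follow that course, and Jund is known for more constant expression. The 10 genes were chosen by symbol and each was found as a single row among the 24532 genes of the deposited table. They were measured in whole gastrocnemius, the large calf muscle, of 12-week-old C57BL/6 mice, by sequencing poly(A)-selected RNA. In 3 knockout mice (Ckmm-Cre; USP21 flox/flox) both alleles of Usp21, a gene for an enzyme that removes ubiquitin from proteins, were floxed and a Cre transgene under the Ckmm promoter, that of muscle creatine kinase, was present. In 3 control mice (USP21 flox/flox, with the genotype entered as Litter) the same floxed alleles were present without Cre. That promoter is active in muscle fibres, so the other cells of the tissue would keep the gene. The labels name neither the deleted exons nor the sex of the mice, and say nothing of handling or time of day at collection. They do not say which mice share a litter or cage, and the p-values here cover the spread among these 6 libraries and no more.

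Fos proteins cannot pair with one another and bind DNA as dimers with Jun proteins, whereas Jun proteins also pair among themselves; the resulting dimers are called AP-1. Atf3 is a stress-induced partner of Jun that often represses, and Maff is a small Maf protein that lacks a transactivation domain and pairs with Nrf proteins, Bach proteins or itself. Egr1 belongs to another family, with zinc fingers, and shares with Fos its induction through serum response factor. In skeletal muscle several of these genes are known for a brief induction after contraction, stretch or injury, and also in the other cells of the tissue. In bulk RNA, fewer cells of a type and less RNA per cell cannot be told apart.

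Promoters of immediate early genes are known to carry sites for the factors that switch them on, such as Creb at the cAMP response element. RefSeq promoter windows (GRCm38.p6, the assembly that mm10 names) of 250 bases before to 50 bases after the annotated start were matched by gene identifier for 8 of the 10 genes. Windows are given, 5′ to 3′ on the gene's strand, for the members with a window that varied most between libraries. Capitals mark matches, on either strand, to the core of the cAMP response element (TGACG), to the Egr site (GCGNGGGCG) and to the TATA box (TATAAA).
Fos, chr12:85473640-85473939, plus strand: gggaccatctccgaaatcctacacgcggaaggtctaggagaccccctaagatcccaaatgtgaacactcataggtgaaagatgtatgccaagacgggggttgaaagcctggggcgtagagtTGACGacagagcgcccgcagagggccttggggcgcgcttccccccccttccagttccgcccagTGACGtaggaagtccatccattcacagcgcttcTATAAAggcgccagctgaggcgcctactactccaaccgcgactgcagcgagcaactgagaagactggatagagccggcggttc
Fosb, chr7:19309996-19310295, minus strand: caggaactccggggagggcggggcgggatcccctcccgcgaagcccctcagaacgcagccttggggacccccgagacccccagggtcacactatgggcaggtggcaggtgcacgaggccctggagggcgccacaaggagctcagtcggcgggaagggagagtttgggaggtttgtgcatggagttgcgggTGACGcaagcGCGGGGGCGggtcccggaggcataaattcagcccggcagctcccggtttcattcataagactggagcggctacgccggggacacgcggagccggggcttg
Atf3, chr1:191183284-191183583, minus strand: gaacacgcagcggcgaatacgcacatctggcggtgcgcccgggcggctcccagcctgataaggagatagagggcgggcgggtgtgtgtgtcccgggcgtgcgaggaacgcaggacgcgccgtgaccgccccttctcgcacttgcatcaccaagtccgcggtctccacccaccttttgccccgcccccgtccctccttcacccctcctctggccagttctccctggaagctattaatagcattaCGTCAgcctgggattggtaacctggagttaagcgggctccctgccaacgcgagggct
Maff, chr15:79347270-79347569, plus strand: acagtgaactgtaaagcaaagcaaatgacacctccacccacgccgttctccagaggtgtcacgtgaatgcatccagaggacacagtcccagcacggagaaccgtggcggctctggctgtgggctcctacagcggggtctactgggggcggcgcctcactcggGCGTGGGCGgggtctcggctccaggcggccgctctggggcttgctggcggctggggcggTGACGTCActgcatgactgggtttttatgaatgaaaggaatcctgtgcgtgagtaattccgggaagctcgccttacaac
The Maff window shown is the only one of its 3 annotated windows to hold an Egr site, and gene-level counts do not tell which start was used. Of the windows not shown, the first held none of these motifs. The last held TGACG beginning 122 bases before its start and no Egr site or TATA box. The Fos window held TGACG beginning 129 and 66 bases before the start and a TATA box 33 bases before it. In Fosb, TGACG began 60 bases before the start and an Egr site 50 bases before it. In Atf3, TGACG read on the other strand began 7 bases before the start. In Maff a pair of overlapping TGACG matches on opposite strands, beginning 29 and 26 bases before the start, together spell the palindromic cAMP response element, and an Egr site began 88 bases before it. Over all 32851 windows of this length in the table, TGACG was found in 20.8%, the Egr site in 5.55% and the TATA box in 13.6%. The 8 members with a window have 10 windows in all, of which 6 held TGACG, 3 the Egr site and 2 the TATA box. TGACG was in a window of 5 of the 8, the 4 shown and Junb, and in none of Fosl2, Jun and Jund. The canonical AP-1 site (TGANTCA), found in 7.81% of all windows, and the CArG box, found in 1.63%, had no match in any of the 10. Variant sites and sites outside these windows were not searched, and Fosl1 and Egr1 have no window here. The absence of a match therefore does not show that a promoter lacks such a site. A match is a description of letters in these windows, and none of these data measured binding.

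The 10 genes were short. Their median span from start to end was 5586.5 bases, against 15045.5 bases over the table's genes with a RefSeq entry, and all but Fosl2 (21369 bases) were shorter than that median. Jun, Junb and Jund each have a single exon. Coordinates are those of RefSeq on GRCm38, and exons and overlaps those of GENCODE on the same build. Exons of Jun, Junb, Jund and Fosl1 overlap those of Junos, Prdx2, Gm11175 and Ccdc85b on the opposite strand, and the sources used here do not say whether strand was used in counting. The values of those 4 genes could therefore include reads of the overlapping partner.

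Libraries held 53906493 to 65425324 counts in knockouts and 48658436 to 67332846 in controls, so that a gene with 0 counts could have up to 0.0454 to 0.0598 CPM (3 counts, counting error only). CPM here are counts scaled to library size with TMM factors. Usp21 was lower in every knockout, at 9.08, 7.19 and 7.47 CPM in knockouts 1 to 3 and 19.3, 19.3 and 19.2 CPM in controls 1 to 3 (log2 fold change -1.28, SE 0.11, edgeR adjusted p = 0.0355). That call was lost without control 1 (adjusted p = 0.186), control 2 (0.129), control 3 (0.0944) or knockout 2 (0.154). The muscle fibre markers, 6 genes, were abundant and summed to between 143599 and 172238 CPM in knockouts and between 121570 and 152692 CPM in controls. Control 3 stood apart in markers of slow fibres, whose 8 genes summed to 165 CPM there, against 1418 and 1378 CPM in controls 1 and 2 and 1079, 764 and 1739 CPM in knockouts 1 to 3.

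In edgeR's quasi-likelihood test over the 14109 genes that passed a filter on low counts, 9 of the 10 genes were tested and Fosl1 was not. None of the 9 passed an adjusted p under 0.05 in either direction, where 0.0567% of all tested genes did, 0.0354% higher and 0.0213% lower (5 and 3 genes). Before adjustment, p was under 0.05 for Fosb, Jun and Maff, which were higher in knockouts, and for Fos, which was lower; over all genes 6.56% were higher and 5.07% lower by that rule. The median log2 fold change was 0.37 over the 9 tested genes and -0.0037 over all tested genes. Of the 9, 6 were positive, beside 49.3% of all tested genes. Knockouts lay wholly above controls for Jun and Maff, and the groups overlapped for the other 7; over all genes 8.38% lay wholly above and 8.87% wholly below. For a single gene an exact permutation test of 3 against 3 libraries cannot give a two-sided p below 0.1. DESeq2's Wald test on the same genes called 1 of the 9, Maff, where it called 1.52% of all genes with an adjusted p higher and 0.578% lower. Limma-voom called 0 of the 9, where it called 0.0284% of all genes higher and 0.00709% lower.

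**Figure D1:**
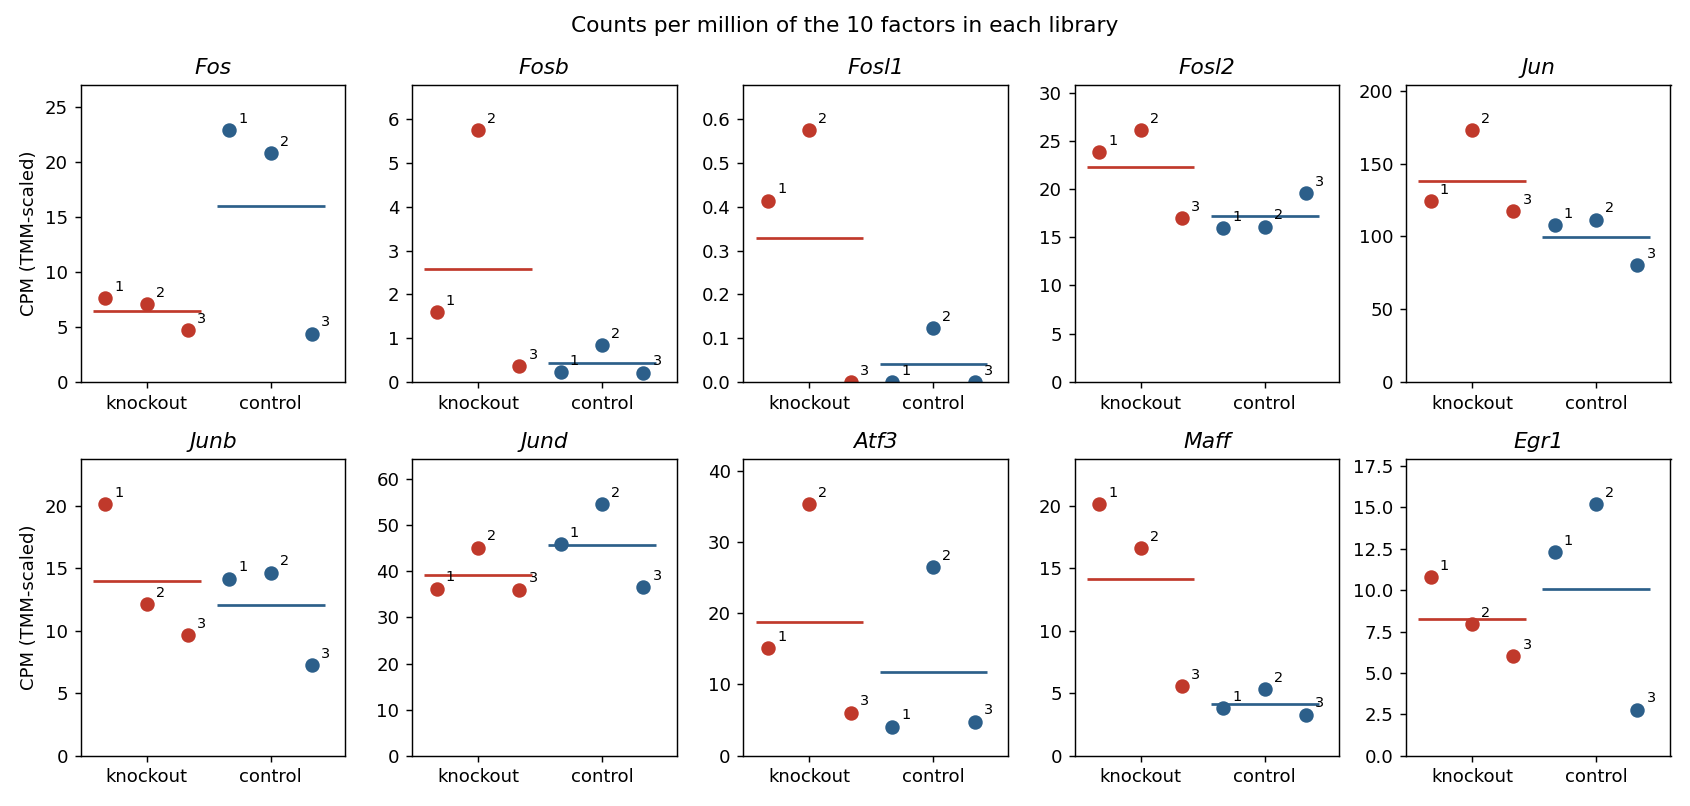
CPM (vertical axis, linear from 0 in each panel) of the 10 genes in the 3 knockout (red) and 3 control (blue) libraries; numbers beside the points are the replicate and horizontal lines the group means. Controls 1 and 2 stand above every knockout for Fos, and knockouts 1 and 2 stand above every control for Maff.

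Fos (Entrez gene 14281; chr12:85473890-85477274, plus strand), the founding member of its family and a short-lived protein made in bursts, stood lower in knockouts than in controls 1 and 2. Its level was 7.62, 7.06 and 4.69 CPM in knockouts 1 to 3, against 22.9, 20.8 and 4.39 CPM in controls 1 to 3. The groups therefore overlapped through control 3 alone, which lay just below the lowest knockout. The log2 fold change was -1.31 (SE 0.54; 95% interval -2.58 to -0.042; edgeR adjusted p = 0.415). Without control 3 it was -1.76 (SE 0.20, edgeR adjusted p = 0.0961), and this was the smallest adjusted p among the fits that left out 1 library. The log2 fold change was -0.96 without control 1 (SE 0.58, edgeR adjusted p = 0.796) and -1.08 without control 2 (SE 0.61, adjusted p = 0.525). By limma-voom with all libraries it was -0.96 (SE 0.69, adjusted p = 0.624). Control 3 was also the library with few slow fibre transcripts, and the part of that difference in the Fos level was not tested.

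Fosb (Entrez gene 14282; chr7:19302696-19310118, minus strand), a close relative of Fos, was a low-abundance gene that differed most between single libraries. It was measured at 1.60, 5.75 and 0.365 CPM in knockouts 1 to 3, against 0.219, 0.834 and 0.212 CPM in controls 1 to 3. These values rest on 104, 290 and 20 counts in knockouts and 11, 54 and 14 counts in controls. Knockouts 1 and 2 lay above every control, whereas knockout 3 lay below control 2. The fold was 5.97 and the log2 fold change 2.58 (SE 0.98; 95% interval 0.28 to 4.87; edgeR adjusted p = 0.390). Without knockout 2 it was 1.21 (adjusted p = 0.761) and without control 2 it was 3.55 (adjusted p = 0.355).

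Fosl1 (Entrez gene 14283; chr19:5447698-5455938, plus strand), also called Fra-1, was scarcely detected. It had 27, 29 and 0 counts in knockouts 1 to 3, against 0, 8 and 0 counts in controls 1 to 3. The libraries with counts, in their order of size, were the same 3 that led for Fosb. Fosl2 (Entrez gene 14284; chr5:32136472-32157840, plus strand), or Fra-2, was the steadiest of the Fos genes, at 23.9, 26.1 and 17.0 CPM in knockouts 1 to 3 and 15.98, 16.1 and 19.6 CPM in controls 1 to 3. Knockouts 1 and 2 lay above every control and knockout 3 below control 3. Its log2 fold change was 0.37 (SE 0.17; 95% interval -0.022 to 0.77; edgeR adjusted p = 0.451), and it was 0.54 without knockout 3 (SE 0.12, edgeR adjusted p = 0.109) and 0.24 without knockout 2 (SE 0.17, adjusted p = 0.771).

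Jun (Entrez gene 16476; chr4:95049036-95052222, minus strand), the main partner of Fos and the most abundant of the 10 genes, was higher in every knockout than in any control, by a small margin. It had 124, 173 and 117 CPM in knockouts 1 to 3, against 108, 112 and 80.1 CPM in controls 1 to 3. The log2 fold change was 0.47 (SE 0.18; 95% interval 0.042 to 0.90; edgeR adjusted p = 0.396). Without knockout 2, the highest library, it was 0.28 (adjusted p = 0.727), and without control 3, the lowest, 0.33 (adjusted p = 0.528).

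Junb (Entrez gene 16477; chr8:84976909-84978748, minus strand) can act against Jun at some targets. It was at 20.1, 12.1 and 9.66 CPM in knockouts 1 to 3 and 14.2, 14.6 and 7.25 CPM in controls 1 to 3. The groups overlapped, with the highest and the next to lowest library among knockouts, and the log2 fold change was 0.22 (SE 0.34; 95% interval -0.57 to 1.01; edgeR adjusted p = 0.841). The sign turned without knockout 1 (-0.14) or control 3 (-0.042), and the value was 0.43 without knockout 3. Jund (Entrez gene 16478; chr8:70697739-70700616, plus strand) is the Jun gene with the most constant expression in resting cells. It was at 36.2, 45.2 and 36.0 CPM in knockouts 1 to 3 and 45.9, 54.6 and 36.6 CPM in controls 1 to 3. The groups overlapped only in that control 3 lay below knockout 2. Control 3 was just above knockouts 1 and 3, and knockout 2 was just below control 1. Its log2 fold change was -0.22 (SE 0.16; 95% interval -0.60 to 0.15; edgeR adjusted p = 0.634), and it was -0.083 without control 2 and -0.36 without control 3.

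Atf3 (Entrez gene 11910; chr1:191170296-191183333, minus strand) differed widely within both groups. It was measured at 15.1, 35.3 and 6.04 CPM in knockouts 1 to 3, against 4.07, 26.5 and 4.78 CPM in controls 1 to 3. The highest library of each group stood far above the lowest of its own group, and control 2 exceeded knockouts 1 and 3. The log2 fold change of 0.67 (SE 0.84; 95% interval -1.28 to 2.62; edgeR adjusted p = 0.795) was therefore smaller than its error. It was 2.07 without control 2 (adjusted p = 0.357) and -0.16 without knockout 2 (adjusted p = 0.977).

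Maff (Entrez gene 17133; chr15:79346621-79359078, plus strand) had the smallest p of the 9 tested genes (0.00465 before adjustment). It had 20.1, 16.6 and 5.57 CPM in knockouts 1 to 3, against 3.81, 5.33 and 3.28 CPM in controls 1 to 3. Every knockout lay above every control, but knockout 3 exceeded control 2 by little. The fold was 3.41 and the log2 fold change 1.77 (SE 0.44; 95% interval 0.73 to 2.80; edgeR adjusted p = 0.305). It was called higher by edgeR without knockout 3, where 0.836% of all genes were called higher and 0.146% lower (log2 fold change 2.15, SE 0.21, adjusted p = 0.0185), and by DESeq2 with all libraries (1.77, SE 0.40, adjusted p = 0.00143). It was not called without any other library, with adjusted p between 0.302 and 0.763.

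The protein of Egr1 (Entrez gene 13653; chr18:34861207-34864956, plus strand) binds GC-rich sites and induces its own corepressor Nab2. The gene was at 10.8, 7.93 and 6.01 CPM in knockouts 1 to 3, against 12.3, 15.2 and 2.78 CPM in controls 1 to 3. As for Fos, controls 1 and 2 lay above every knockout and control 3 below every knockout. The log2 fold change was -0.29 (SE 0.54; 95% interval -1.55 to 0.97; edgeR adjusted p = 0.874), so its error was larger than its size. It was -0.74 without control 3 (SE 0.24, adjusted p = 0.427), and it turned positive without control 2 (0.13, adjusted p = 0.947) and by limma-voom (0.057).

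**Figure D2:**
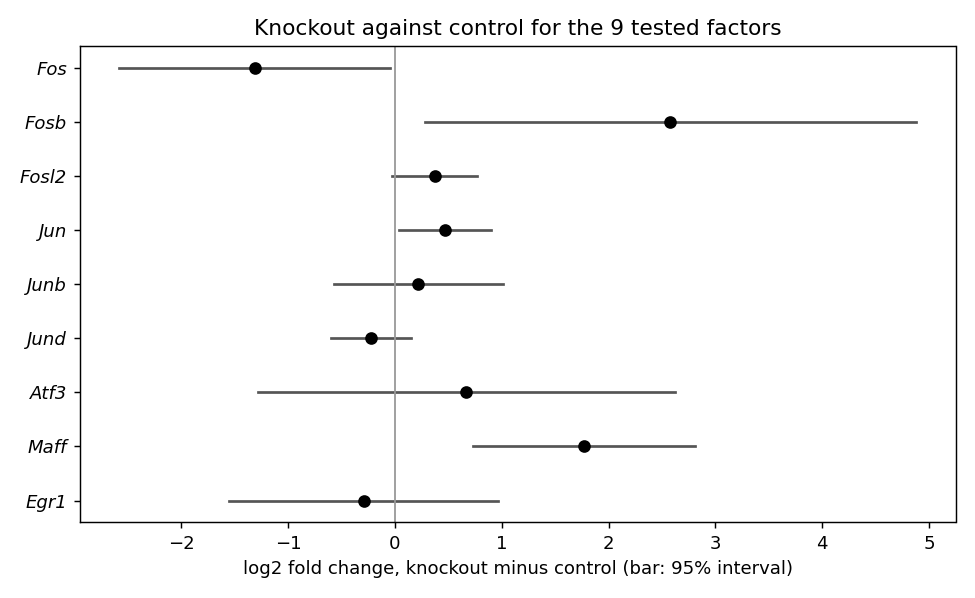
Log2 fold change of the 9 tested genes (horizontal axis, knockout minus control; points are edgeR estimates and bars their 95% intervals). The intervals of Fos, Fosb, Jun and Maff do not include 0 before adjustment over all genes, and none of the 9 has an adjusted p under 0.05.

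The 10 genes thus did not share an order of libraries. On log2 CPM centred on each gene's mean, Fos stood 1.34 and 1.21 above its mean in controls 1 and 2 and 1.03 below it in control 3 (-1.03). Egr1 had 0.61, 0.92 and -1.52 in the same libraries. For Fosb and Atf3, knockout 2 was the highest library and control 2 lay above control 1 and control 3. For Maff, knockouts 1 and 2 had 1.51 and 1.23 and the other 4 libraries were all below the mean. Among the 9 tested genes, knockout 2 was the highest library for 4, and the lowest was control 3 for 6, control 1 for 2 and knockout 3 for 1.

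**Figure D3:**
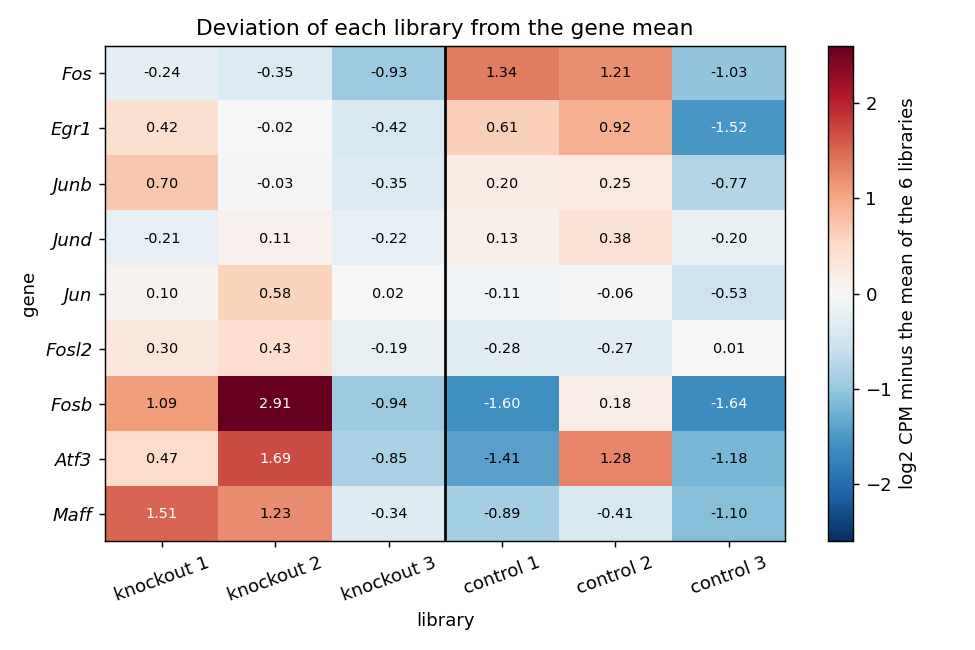
Log2 CPM minus the mean of the 6 libraries for the 9 tested genes (rows) in each library (columns, knockouts left of the black line). Fos and Egr1 are high in controls 1 and 2 and low in control 3, Fosb and Atf3 are highest in knockout 2, and Maff is high in knockouts 1 and 2.

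Spread within groups was wide for many of these genes. The pooled within-group SD of log2 CPM had a median of 0.75 over the 9 tested genes and 0.18 over all tested genes, and all 9 exceeded 0.18. Fosb (1.55), Atf3 (1.39), Egr1 (0.98) and Fos (0.98) each exceeded the SD of more than 95% of tested genes; for Fosb, 99.2% of genes had a smaller one. Jund (0.24) exceeded 63.9% of genes and Fosl2 (0.26) 66.6%. The spread of Fos was uneven between the groups, with an SD of 0.37 among knockouts and 1.33 among controls, and Egr1 had 0.42 and 1.33. Maff was the other way round, with 1.00 among knockouts and 0.35 among controls. With 3 libraries a group these SDs are imprecise, and the difference between them was not tested.

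**Figure D4:**
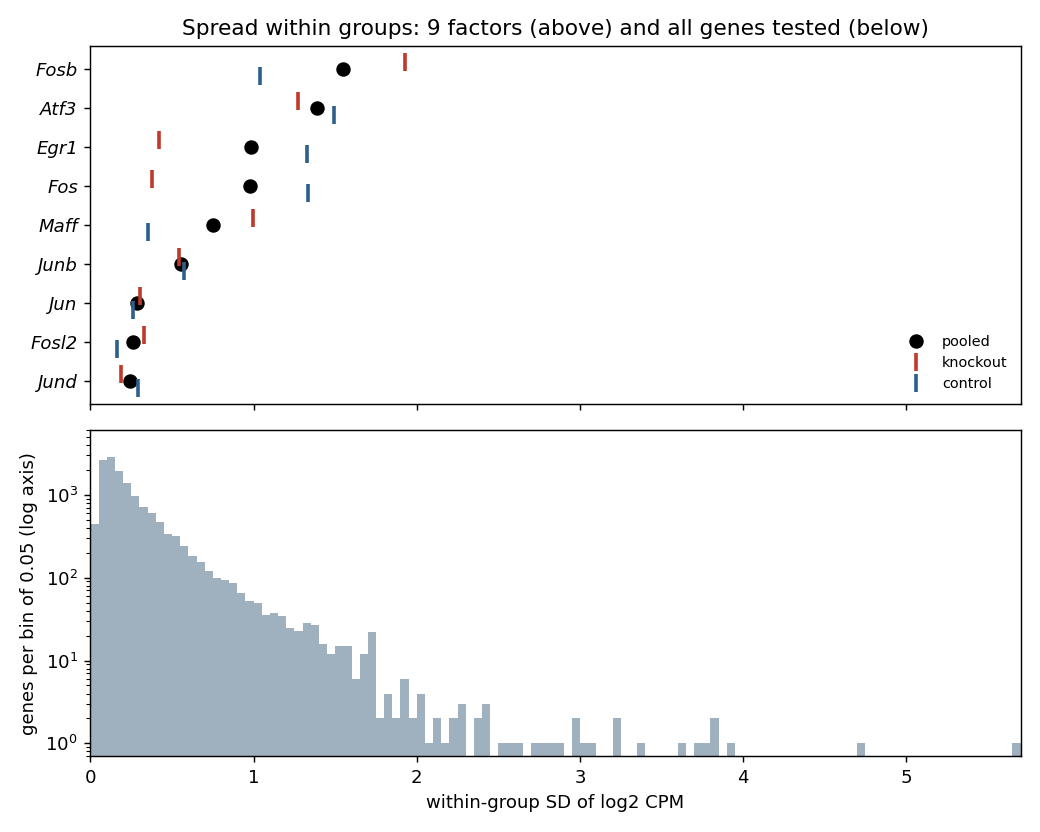
Within-group SD of log2 CPM (horizontal axis) for the 9 tested genes (upper panel; black points pooled, red marks knockouts, blue marks controls) and the number of tested genes per bin of SD (lower panel, log axis). Fosb and Atf3 lie far in the tail, and Jund, Fosl2 and Jun lie in the body of the distribution.

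Levels of different genes can be compared per length, on the FPKM values computed by the authors. In knockouts the order of mean FPKM was Jun (41.6 ± 7.47, SD, n = 3), Jund (13.1 ± 1.24), Atf3 (8.995 ± 6.87), Junb (7.33 ± 3.00), Maff (6.94 ± 3.75), Fosl2 (3.65 ± 0.700), Fos (2.96 ± 0.702), Egr1 (2.58 ± 0.783), Fosb (0.651 ± 0.706) and Fosl1 (0.180 ± 0.161). In controls it was Jun (31.8 ± 6.61, SD, n = 3), Jund (16.1 ± 3.81), Fos (7.86 ± 5.06), Junb (6.66 ± 2.49), Atf3 (6.16 ± 6.84), Egr1 (3.38 ± 2.24), Fosl2 (2.96 ± 0.241), Maff (2.17 ± 0.655), Fosb (0.115 ± 0.101) and Fosl1 (0.0222 ± 0.0384). In both groups Jun stood above the next gene in every library, and Fosb and Fosl1 stood last. Between Jund and Egr1 in knockouts and between Fos and Maff in controls, neighbours in the order overlapped in their libraries. By these means Fos was the seventh of the 10 in knockouts and the third in controls.

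The Jun genes together had more FPKM than the Fos genes together in every library, by 7.48, 7.88 and 10.5 times in knockouts 1 to 3 and 4.19, 4.77 and 7.61 times in controls 1 to 3. The groups overlapped, since control 3 lay above knockout 1. Within the Fos family, Fosl2 had 1.12, 1.32 and 1.295 times the FPKM of Fos in knockouts 1 to 3, against 0.249, 0.276 and 1.59 times in controls 1 to 3. Fos thus gave 34.6% to 43.5% of the family's FPKM in knockouts, 79.7% and 76.7% in controls 1 and 2 and 38.1% in control 3. Within the Jun family, Jun gave 62.4%, 70.9% and 67.5% in knockouts 1 to 3 and 58.9%, 56.5% and 60.2% in controls 1 to 3, so the groups did not overlap. These shares were described after the values of the members were seen and were not tested. No share of this kind was computed for other genes, and reads of the overlapping opposite-strand genes could enter the values of the Jun genes.

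**Figure D5:**
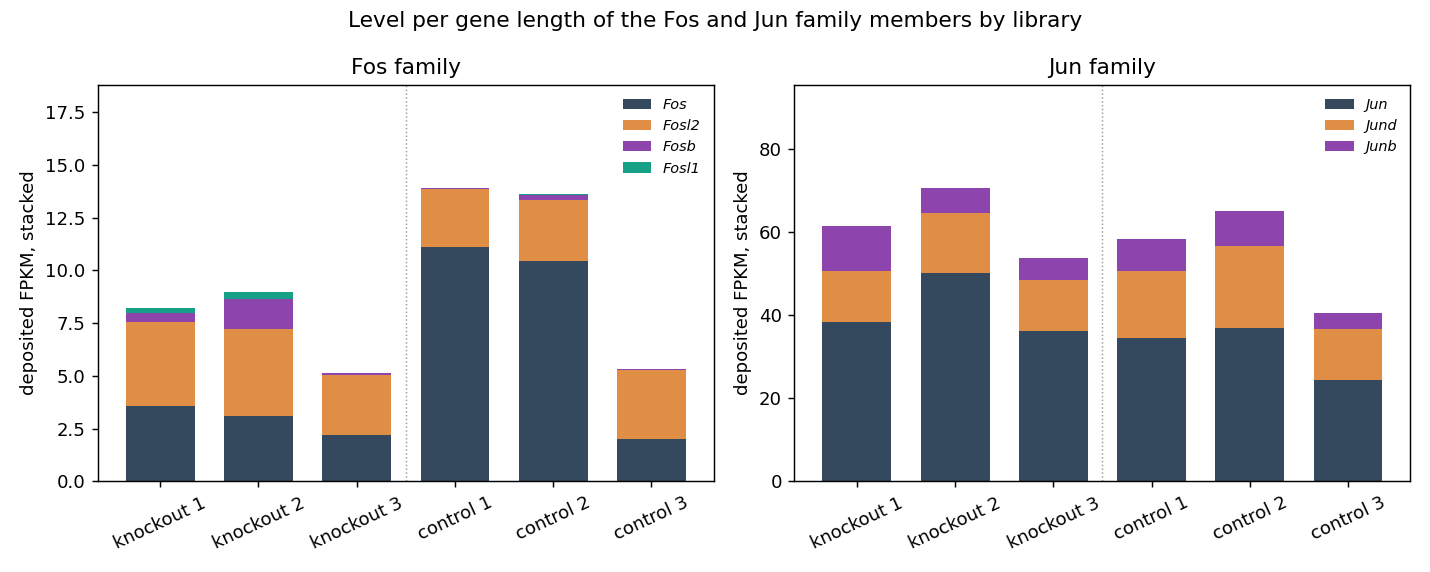
Deposited FPKM of the Fos genes (left) and the Jun genes (right), stacked by gene (vertical axis, linear from 0) for each library, knockouts left of the dotted line. Fos makes up most of the Fos family in controls 1 and 2, and Fosl2 is the larger of the pair in all 3 knockouts and in control 3.

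Genes whose centred log2 CPM lay nearest to a member's over the 6 libraries were taken from all genes with a mean of at least 1 CPM, for the 5 tested members that spanned at least 2 log2 units. Nearness is the root mean square difference in log2 CPM. For Fos the nearest were Amigo3 (0.33), 4930511M06Rik (0.40) and Foxs1 (0.42), and the nearest of the other members was Egr1 (0.53). For Egr1 they were Thbs1 (0.31), a matrix glycoprotein, Inhba (0.37), an activin subunit, and Fhl1 (0.37), a LIM protein abundant in muscle, and the nearest member was Junb (0.46). For Fosb the nearest were Hspa1b (0.44), Pakap (0.44) and Hspa1a (0.46). Hspa1a and Hspa1b are near-identical genes of inducible Hsp70, and how their shared reads were divided is uncertain.

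For Atf3 the nearest genes were Xirp1 (0.47), an actin-binding protein of striated muscle, Pde7a (0.53), a cAMP phosphodiesterase, and Tnfrsf12a (0.59), the receptor of the cytokine TWEAK. Xirp1 had 431, 512 and 187 CPM in knockouts 1 to 3, against 163, 521 and 136 CPM in controls 1 to 3, so control 2 was as high as the highest knockout. Atf3 and Fosb were each other's nearest member (0.75). For Maff the nearest were Igf1 (0.17), the growth factor, Ism1 (0.21) and Rab30 (0.22), and the nearest member was Jun (0.77). Igf1 had 77.3, 61.6 and 23.4 CPM in knockouts 1 to 3, against 17.4, 18.3 and 15.9 CPM in controls 1 to 3 (log2 fold change 1.65, SE 0.38, edgeR adjusted p = 0.265). Nearest genes were picked for values close to a member's in these same libraries. The difference of Igf1 between groups therefore follows from its choice and is no separate result.

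Partners and competitors of these factors among bZIP proteins were described by a list of 19 genes, of which 18 were tested and none was called. Before adjustment, 4 had p under 0.05 with a positive log2 fold change and 1 with a negative one. The shares over all tested genes were 6.56% and 5.07%. The list's median was 0.17, beside -0.0037 over all tested genes. Bach1, a repressor that pairs with small Maf proteins such as Maff, had 64.0, 54.5 and 51.7 CPM in knockouts 1 to 3, against 42.5, 40.4 and 34.7 CPM in controls 1 to 3 (log2 fold change 0.53, SE 0.11, edgeR adjusted p = 0.241). Its knockouts lay wholly above controls, as held for 8.38% of all tested genes. Jdp2, a repressor that pairs with Jun, had 7.39, 8.74 and 6.68 CPM in knockouts 1 to 3 and 3.99, 5.42 and 5.04 CPM in controls 1 to 3 (0.66, SE 0.16, adjusted p = 0.302).

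Of the Egr relatives and their Nab corepressors, 4 of 6 were tested and none was called. An unadjusted p under 0.05 was found for 0 of them, beside 11.6% of all tested genes. Nab2 was at -0.26 (SE 0.21, edgeR adjusted p = 0.663) and Nab1 at 0.17 (SE 0.15, adjusted p = 0.702) on the log2 scale, and the list's median was -0.049. Egr2 and Egr3, chosen after their values were seen, were at most 1.97 and 1.02 CPM in any library. Wt1 had no count in any library, and Egr4 had at most 0.0991 CPM.

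The factors that act at immediate early promoters, 15 genes and all tested, had 0 called and a median of -0.062. By the unadjusted p 2 were higher and 2 lower, beside 6.56% and 5.07% of all tested genes. Atf1, which binds the cAMP response element, was at -0.28 (SE 0.084, edgeR adjusted p = 0.350), and Crtc3, a coactivator of Creb, at -0.34 (SE 0.11, adjusted p = 0.363). For both, every knockout lay below every control, as held for 8.87% of all tested genes. Crem, which also encodes the inducible repressor ICER and is named for its values, had 23.7, 19.6 and 7.03 CPM in knockouts 1 to 3, against 7.0004, 7.21 and 7.61 CPM in controls 1 to 3. Knockout 3 was thus as low as the controls, and knockouts 1 and 2 were far above them.

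Of the 22 MAP kinases and related kinases, all tested, 0 were called and the median was -0.026. By the unadjusted p 2 were higher and 2 lower, beside 6.56% and 5.07% of all tested genes. Map2k6, an activator of p38, was at 41.9, 40.0 and 44.2 CPM in knockouts 1 to 3, against 28.7, 33.5 and 32.6 CPM in controls 1 to 3 (log2 fold change 0.41, SE 0.087, edgeR adjusted p = 0.241). Every knockout lay above every control for Map2k6, as held for 8.38% of all tested genes.

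Other immediate early genes outside the NR4A and Dusp families numbered 25. All were tested and 0 were called. By the unadjusted p 3 were higher and 0 lower, beside 6.56% and 5.07% of all tested genes. The median was 0.095, and 17 of the 25 values were positive, beside 49.3% of all tested genes. Myc, a growth regulator, had 9.985, 9.97 and 7.36 CPM in knockouts 1 to 3, against 4.29, 6.36 and 5.46 CPM in controls 1 to 3 (0.76, SE 0.19, edgeR adjusted p = 0.295). Sik1, a kinase induced by cAMP, had 68.7, 68.5 and 25.8 CPM in knockouts 1 to 3, against 19.4, 23.7 and 24.6 CPM in controls 1 to 3 (1.27, SE 0.34, adjusted p = 0.314). Ier2 and Btg2, both chosen after their values were seen, were at -0.25 (SE 0.18, adjusted p = 0.630) and 0.095 (SE 0.28, adjusted p = 0.926).

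Genes commonly described as AP-1 or Egr1 targets had the highest median of the 6 lists, 0.26 over 22 of 23 genes tested. Of these, 16 were positive, beside 49.3% of all tested genes, and 0 were called. By the unadjusted p, 7 were higher and 2 lower, beside 6.56% and 5.07% of all tested genes. Hbegf, a growth factor of the EGF family, had 36.9, 62.9 and 53.6 CPM in knockouts 1 to 3, against 15.1, 20.9 and 21.2 CPM in controls 1 to 3 (log2 fold change 1.42, SE 0.21, edgeR adjusted p = 0.133). Unlike Maff and Sik1, Hbegf was not lower in knockout 3 than in knockout 1. Nqo1, a quinone reductase, had 20.7, 20.3 and 23.8 CPM in knockouts 1 to 3, against 29.2, 25.2 and 30.3 CPM in controls 1 to 3 (-0.39, SE 0.11, adjusted p = 0.314).

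Markers of other cell types were set beside these values, since leukocytes, endothelium and fibroblasts can also express the 10 genes. Leukocyte markers summed to 74.3 to 119 CPM in knockouts and 74.5 to 130 CPM in controls, with 7 of 10 tested and 6 of the 7 positive in log2 fold change, Cd3e at 0 in every library but knockout 3 and S100a8 at most 0.337 CPM. Endothelial markers summed to 282 to 312 CPM in knockouts and 288 to 356 CPM in controls (6 of 6 tested, 2 positive), and smooth muscle and pericyte markers to 507 to 601 CPM in knockouts and 486 to 608 CPM in controls (6 of 6, 4 positive). Fibroblast markers summed to 1631 to 1908 CPM in knockouts and 1178 to 1664 CPM in controls, all 6 with a positive log2 fold change. Satellite cell markers summed to 41.0 to 56.3 CPM in knockouts and 54.8 to 57.7 CPM in controls (6 of 6, 5 of them negative). Schwann cell markers, at 43.3 to 233 CPM in knockouts and 66.4 to 185 CPM in controls (5 of 5, all negative), and adipocyte markers, at 19.97 to 65.2 CPM in knockouts and 12.3 to 55.4 CPM in controls (4 of 4, 2 positive), varied most within groups. Over all tested genes, 49.3% had a positive log2 fold change. None of these markers was called at an adjusted p under 0.05, and the part of these marker differences in the levels of the 10 genes was not tested.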

How the data were processed

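RNA of 6 gastrocnemius samples was sequenced, 1 library a mouse, from total RNA extracted with Trizol and a strand-preserving mRNA kit, per the labels' protocols. The read counts per gene were deposited unnormalized, per the file headers. The same table as deposited holds FPKM (scaled to gene length and library size), used here for levels between genes, and TPM, which entered no result. The submitters' processing notes name StringTie 1.3.4d, Bowtie2 2.3.4.1, FastQC 0.11.7 and bcl2fastq 2.20.0 beside mm10, without roles. The method of counting is not given in the sources used here.

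Counts were tested with edgeR 4.0.16 in R 4.3.3 (filterByExpr, minimum count 10, TMM, quasi-likelihood test, Benjamini-Hochberg adjustment over all 14109 genes tested, threshold 0.05). Of the 24532 genes, 10423 were not tested. For each log2 fold change the standard error and 95% interval were derived from edgeR's F statistic and its degrees of freedom. Log2 CPM used a prior count of 2, and CPM used TMM-scaled libraries. The test was checked on simulated data. All pairs of libraries within a group differed by more than sampling noise, with a chi-square of at least 33.6 times its degrees of freedom.

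The members and gene lists were chosen with earlier results of these data known. Besides the 10 members and Usp21, genes were named by rule: the 2 of each list with the smallest p where none passed, and the 3 nearest genes of each tested member spanning at least 2 log2 units (Fosl1, untested, was left out). A gene of the kinase list that this rule names is not reported here. Crem, Egr2, Egr3, Egr4, Wt1, Ier2, Btg2 and the genes of the closing observations were picked with their values in view. Alternatives were DESeq2 size factors, upper-quartile scaling, limma-voom (limma 3.58.1), the Wald test of DESeq2 1.42.0, no filter on low counts, a filter of 1 CPM, a replicate block, an adjusted p under 0.10, and leaving out each library.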

Additional observations from a re-analysis of the deposited data

How the results depend on the processing

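The count of members called higher was 0 with both rescalings, both filters, limma-voom, the replicate block and an adjusted p under 0.10. It was 1, Maff, by DESeq2's Wald test, and 0 to 1 without single libraries, the 1 being Maff without knockout 3; the count called lower was 0 throughout. Over all genes, 210 were higher and 80 lower by DESeq2, with 280 genes given no adjusted p, 1 was lower by limma-voom, and counts without single libraries ran from 1 to 120 higher and from 0 to 21 lower. DESeq2 called 2 bZIP partners higher (Bach1 and Jdp2), 1 promoter factor higher (Crem), 1 kinase higher (Map2k6) and 1 lower, 2 other early genes higher (Myc and Sik1) and 3 targets higher (Hbegf, Ccnd1 and Ccl2). Without single libraries these lists had 0 to 2, 0 to 1, 0, 0 to 1 and 0 to 2 genes higher, the calls being Maf, Nfe2l2, Crem, Sik1, Ccnd1 and Hmox1 without knockout 3. Fosb could not be tested with the filter of 1 CPM.

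Signs turned for Egr1 by limma-voom (0.057) and without control 2 (0.13), for Junb without knockout 1 (-0.14) or control 3 (-0.042), and for Atf3 without knockout 2 (-0.16); the cause was not tested. Without single libraries Egr1 ran from -0.74 to 0.13, Junb from -0.14 to 0.43 and Atf3 from -0.16 to 2.07. The median of the members ran from 0.24 to 0.54 and Usp21 from -1.40 to -1.22 without single libraries. Replicate numbers are shared by the groups, but no label says that they pair the mice, so they were not taken as pairs. Over all tested genes, deviations from the group means of same-numbered libraries had correlations of -0.0082, -0.19 and -0.098. By these deviations 0 of 6 libraries correlated best with their own number. With the replicate block 0 genes were higher and 0 lower, and Usp21 was at -1.29 (adjusted p = 0.200). With that block the unadjusted edgeR p was under 0.05 for 4 members higher and 1 lower, beside 8.25% of all tested genes in either direction. Without it these were 3 and 1, beside 11.6%. At these depths Fosl1 and, in controls, Fosb rest on few counts.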

Other observations

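The genes given here lie outside the 10 and were chosen after their values were seen. Cebpb, a bZIP factor of inflammation and differentiation, was low in the second library of each group. It had 51.6, 8.60 and 41.3 CPM in knockouts 1 to 3 and 38.6, 5.13 and 45.7 CPM in controls 1 to 3. Atf3 was highest in those same 2 libraries. The labels do not say that libraries of the same number share anything.

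Kdr, a receptor of VEGF on endothelium, had 22.4, 19.4 and 23.4 CPM in knockouts 1 to 3 and 40.8, 43.1 and 18.6 CPM in controls 1 to 3, so controls 1 and 2 were high and control 3 low, as for Fos. Pecam1, another endothelial marker, did not follow this order, at 94.0, 92.0 and 78.9 CPM in knockouts 1 to 3 and 85.7, 88.0 and 74.3 CPM in controls 1 to 3. Hmox1, which makes heme oxygenase and is repressed by Bach1, had 39.5, 26.8 and 9.42 CPM in knockouts 1 to 3 and 7.72, 8.37 and 9.32 CPM in controls 1 to 3. Its knockout 3 lay just above the highest control, as for Maff. Maf, a large Maf protein, had 229, 258 and 82.2 CPM in knockouts 1 to 3 and 95.3, 109 and 87.9 CPM in controls 1 to 3.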
